A study of Mus musculus with 6 samples.

Results

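MYC and the genes that build ribosomes were followed in mouse undifferentiated pleomorphic sarcoma cells with and without a hairpin against Postn, the gene of the matrix protein periostin. The group holds 36 genes chosen by symbol, namely Myc, its partners Max and Mxd4, genes of RNA polymerase I, nucleolar and ribosome assembly genes, and the polyamine gene Odc1. All 36 were found among the 35727 genes of the deposited table, and all 36 were among the 12819 genes that had enough counts to be tested. The cells came from 1 line (p53 KO Ccne1 OE), made from mesenchymal stem cells of female C57/Bl6 mice without p53 that carried a retroviral vector for Ccne1 and a red fluorescent protein, and passaged through wild-type female mice. That line then received a viral vector with a scrambled hairpin (shSCR, 3 libraries) or a hairpin against Postn (shPostn, 3 libraries), was grown as tumours in mice, and was sorted by red fluorescence before poly(A) RNA sequencing. All 6 libraries therefore share the loss of p53 and the added cyclin E1, and no age is given. The titles call the shPostn samples KO, while the protocol describes a hairpin. The labels name 1 hairpin and 1 line for each group and do not say whether libraries came from separate tumours, so p-values measure only the spread between these samples, which may be technical.

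MYC is a transcription factor that binds DNA as a pair with MAX, most tightly at the E-box CACGTG, while MXD proteins pair with MAX in its place and repress. Genes for ribosome assembly are among the targets MYC is best known for: RNA polymerase I copies the ribosomal DNA in the nucleolus, small nucleolar particles modify the transcript, and assembly factors fold and cut it into the small and large subunits. In tumours this programme is known to track growth.

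The targeted gene matched the labels. Postn stood at 12.1% of its shSCR level in shPostn (log2 fold change −3.04, SE 0.41, adjusted p = 0.0125), and an exact 2-sided permutation test gave p = 0.1, the lowest value possible for 3 against 3 libraries. Library totals lay between 19603269 and 20376554 counts. All 9 mesenchymal markers were tested. Their summed level lay between 34815 and 39158 CPM (counts divided by the TMM-adjusted library total and rescaled) in shSCR and between 25911 and 46014 CPM in shPostn. The markers did not move alike: log2 fold changes ran from −1.25 to 0.54. Of the 9, 1 was called higher in shPostn and 0 lower, where 4.61% of all genes rose and 5.53% fell. The libraries also held RNA of leukocytes, whose 14 markers were detected in every group and summed to between 80.3 and 233 CPM in shSCR, and to 128, 56.8 and 1102 CPM in shPostn replicates 1, 2 and 3. None of these 14 genes was at 0 over the 6 libraries, and 0 passed the edgeR test, DESeq2 or limma-voom. An unadjusted p under 0.05 was seen at 0 of them, beside 27.0% of all genes. T cell, endothelial and epithelial markers summed to at most 1.25, 6.64 and 2.25 CPM in any library over their tested members (1 of 6, 3 of 8 and 1 of 5), and among all of them only Krt18 had 0 counts throughout.

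In shPostn 5 of the 36 genes fell and none rose, while 31 did not pass the test. The genes that fell were Tcof1, Nop16, Nop14, Bysl and Noc2l, which act at different steps of nucleolar ribosome assembly. They make up 13.9% of the members, where 5.53% of all genes tested fell and 4.61% rose, or 10.1% in either direction. Max, with no call in edgeR, was called higher by DESeq2. In sorted bulk samples fewer cells of a type and less RNA per cell cannot be told apart. The members had a median log2 fold change of −0.14, against 0.01 for all genes tested, and 31 of 36 lay below 0, against 48.4% of all genes. Values of both groups did not overlap at 10 members that were lower in shPostn (17.0% of all genes) and at 1, Max, that was higher (16.6% of all genes). At an unadjusted p under 0.05 there were 12 members, with 27.0% of all genes below that line. Leaving out the 3 members on chromosomes 12 and 18, whose medians were 0.39 and −0.45, 4 of 33 fell, beside 4.46% of the genes off those chromosomes, and 30 of 33 lay below 0, beside 48.7%. These 33 still include members on chromosome 4, among them Noc2l, where the median was −0.14 and 15.0% of genes were called lower. With the medians of all chromosomes taken out, 4 of 36 fell (Bysl, Nop14, Nop16 and Tcof1), beside 2.81% of all genes. In that fit 33 of 36 lay below 0, beside 49.7% of all genes.

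**Figure D1:**
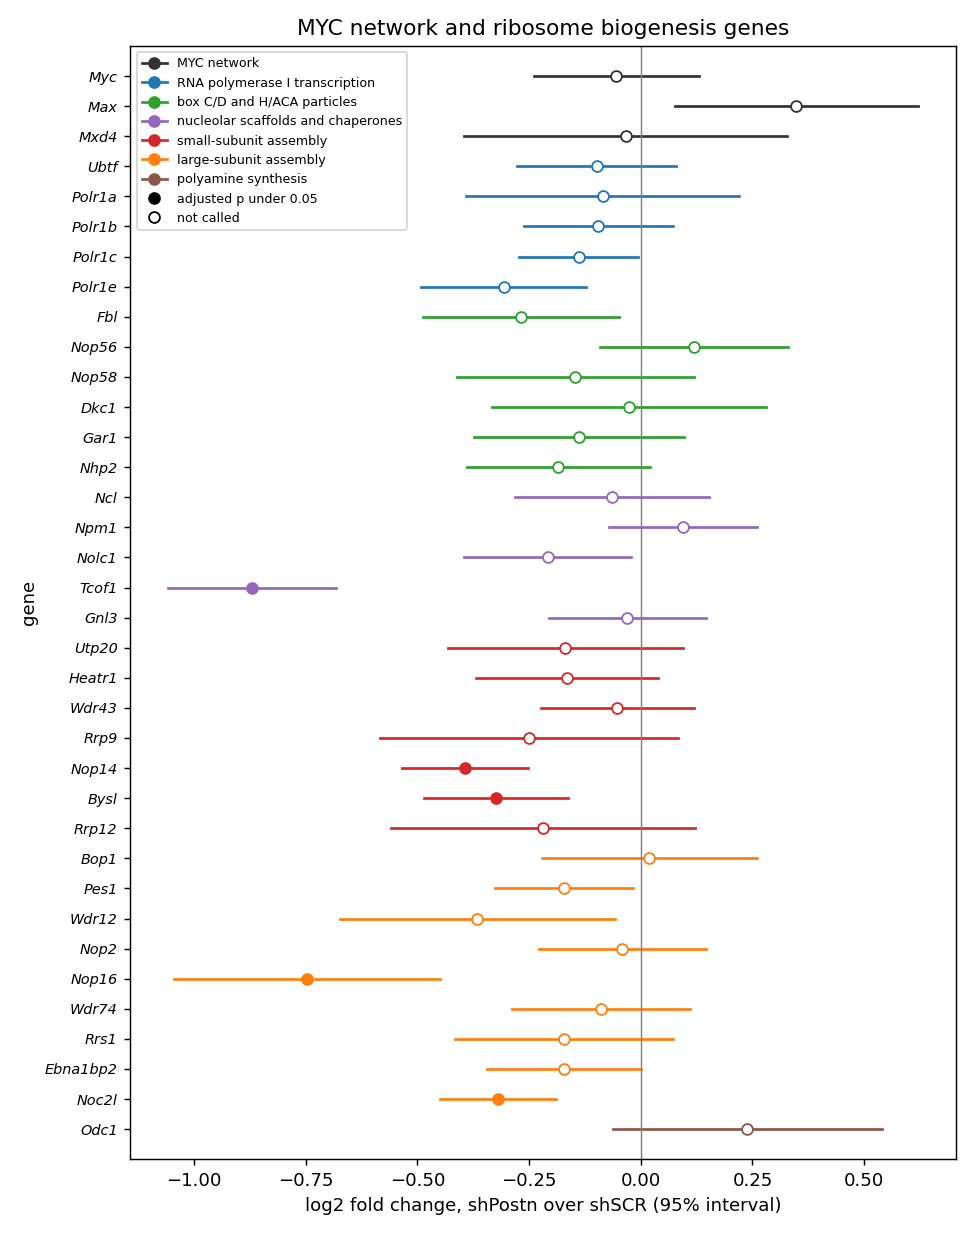
Log2 fold change of each of the 36 genes, shPostn over shSCR, with its 95% interval and coloured by role; filled points passed an adjusted p of 0.05. The 5 filled points, Tcof1, Nop16, Nop14, Bysl and Noc2l, all lie below 0, and Max and Odc1 lie farthest above it.

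The MYC network was described first, since ribosome assembly genes are among the best-known targets of MYC. Regulation of the members by MYC was not tested. Myc (ENSMUSG00000022346; GRCm38 chromosome 15, 61985391 to 61990374, plus strand) measured 103, 108 and 105 CPM in shSCR and 109, 104 and 90.8 CPM in shPostn. The groups overlapped, and only shPostn replicate 3 lay below every shSCR library. The log2 fold change was −0.06 with a 95% interval of −0.24 to 0.13 (adjusted p = 0.700). Without shPostn replicate 3 it was 0.02.

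Max (ENSMUSG00000059436; chromosome 12, 76937269 to 76962201, minus strand), the partner without which MYC does not bind DNA, measured 72.8, 70.3 and 77.2 CPM in shSCR and 111, 89.0 and 80.9 CPM in shPostn. All shPostn libraries lay above all shSCR libraries, yet the change of 0.35 on the log2 scale (SE 0.12) missed the threshold with an adjusted p of 0.105. It passed without shPostn replicate 3 (log2 fold change 0.44, adjusted p = 0.0190), and over the 16 alternative settings its adjusted p ran from 0.0190 to 0.869. The median of the 374 chromosome 12 genes with a mean above 4 CPM was 0.39, and with chromosome medians taken out Max had −0.04 (adjusted p = 0.869). Mxd4, a MAX-binding repressor that opposes MYC (chromosome 5), measured 70.0, 76.2 and 91.0 CPM in shSCR and 63.3, 78.1 and 90.2 CPM in shPostn, with a log2 fold change of −0.03 and a 95% interval of −0.40 to 0.33. Its libraries spread widely within both groups and overlapped.

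The rest of the network held 1 gene that rose and 2 that fell of 11 tested, where 4.61% of all genes rose and 5.53% fell. Mycl, a MYC paralog, rose from 3.04 ± 1.03 to 6.64 ± 1.21 CPM (SD, n = 3 each), by 1.13 on the log2 scale (SE 0.28, adjusted p = 0.0473), and it passed in 1 of the 6 fits that left out a library. Mlxip, a glucose-sensing partner of MLX, fell from 62.7 ± 0.0548 to 38.4 ± 4.77 CPM (−0.71, SE 0.09, adjusted p = 0.00707) and passed in 6 of 6 such fits. Zbtb17, the gene of the MYC-binding protein MIZ1, fell from 37.8 ± 1.01 to 29.2 ± 2.19 CPM (−0.38, SE 0.08, adjusted p = 0.0267) and passed in 1 of 6. Zbtb17 lies on chromosome 4, and with chromosome medians taken out its adjusted p was 0.129.

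The canonical E-box was looked for in the promoter windows because it is the letters MYC and MAX read. Windows of 300 bases, from 250 before to 50 after a start site, come from RefSeq on GRCm38.p6; 29 members had one, and Bop1, Fbl, Myc, Npm1, Rrp12, Rrs1 and Tcof1 had none. CACGTG, which reads the same on both strands, occurred in 6 of 29 members (20.7%), against 8.09% of all 27025 genes with a window. Of the 6, 2 belong to the MYC network (Max and Mxd4). The 27025 genes include many with too few counts to be tested here, the windows were not matched for base composition, and the difference was not tested. The 6 members are shown with up to 12 bases on each side, 5′ to 3′ on the gene's strand, with the E-box in capitals.
Max: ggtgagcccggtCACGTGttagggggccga
Mxd4: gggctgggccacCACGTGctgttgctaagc
Nop2: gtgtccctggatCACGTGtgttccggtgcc
Pes1: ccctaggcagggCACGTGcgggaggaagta
Utp20: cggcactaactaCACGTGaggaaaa
Wdr43: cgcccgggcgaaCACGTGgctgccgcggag
The first base of the motif lay at −3 in Max, −219 in Mxd4, −60 in Nop2, 2 in Pes1, 37 in Utp20 and 17 in Wdr43, counted from a start site at 0. In Max, the member that was highest relative to shSCR, the E-box spans the RefSeq start site, which lies upstream of the gene's first base in the coordinates above. Its whole window (chr12:76962199-76962498, minus strand) is printed with the E-box in capitals.
Max: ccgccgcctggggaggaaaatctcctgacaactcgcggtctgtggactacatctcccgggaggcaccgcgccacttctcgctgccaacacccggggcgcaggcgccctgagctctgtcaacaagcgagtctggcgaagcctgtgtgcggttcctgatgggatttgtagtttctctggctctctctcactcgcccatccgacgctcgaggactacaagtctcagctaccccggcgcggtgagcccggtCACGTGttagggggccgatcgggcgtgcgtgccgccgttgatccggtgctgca
Some genes have several windows, and a match in any of them was counted. None of these 6 members passed the test, and their median log2 fold change was −0.05, with 5 of 6 below 0; the 23 members whose window lacked the motif had −0.15, with 21 of 23 below 0. A match describes letters in a window and is not a binding site.

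RNA polymerase I genes did not pass the test. All 5 log2 fold changes of these members lay below 0, between −0.31 and −0.09, against 48.4% of all genes below 0. Among 10 further genes of this polymerase 1 lay below 0. Polr1e, a subunit particular to this polymerase, was closest to the threshold, with 29.3, 28.8 and 30.1 CPM in shSCR and 24.0, 25.4 and 21.9 CPM in shPostn. Its groups did not overlap (log2 fold change −0.31, SE 0.08, adjusted p = 0.0526), and it passed in 4 of 16 alternative settings, with adjusted p-values from 0.0295 to 0.271. The highest of these came from taking out chromosome medians: Polr1e is on chromosome 4, whose median was −0.14. Polr1c, a subunit shared with RNA polymerase III, also separated the groups, with 60.0, 64.0 and 60.8 against 54.1, 57.2 and 56.5 CPM (−0.14, SE 0.06, adjusted p = 0.167).

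The catalytic subunit gene Polr1a measured 147 to 163 CPM in shSCR and 121 to 174 CPM in shPostn, so its shPostn libraries bracketed the shSCR ones. Its log2 fold change of −0.09 (95% interval −0.39 to 0.22) turned to 0.03 without shPostn replicate 3. Polr1b, the other large subunit, had −0.10 (−0.26 to 0.07), and Ubtf, the factor that keeps ribosomal DNA open for the polymerase, had −0.10 (−0.28 to 0.08). Of 10 further RNA polymerase I genes none passed, and in 2 of them every shPostn library lay above every shSCR library, as in 16.6% of all genes; the list median was 0.12. Named by their mean CPM were Polr1d at 92.8 ± 9.84 in shSCR with a log2 fold change of 0.04, and the promoter factor gene Taf1d at 209.6 ± 16.1 CPM with 0.02. Among these 10 genes 1 was at an unadjusted p under 0.05, beside 27.0% of all genes, and DESeq2 and limma-voom also called 0.

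Small nucleolar particles modify ribosomal RNA under the guidance of short RNAs. In the box C/D particle, Fbl encodes the methyltransferase and Nop56 and Nop58 its core partners; in the H/ACA particle, Dkc1 encodes the pseudouridine synthase and Gar1 and Nhp2 core proteins. Fbl measured 106, 121 and 113 CPM in shSCR and 106, 89.9 and 86.6 CPM in shPostn. The groups met at 106 CPM, and the change of −0.27 (SE 0.09) had an adjusted p of 0.118; it passed only without shPostn replicate 1, with 0.0448, in a range of 0.0448 to 0.337 over 16 settings. Nop56 went the other way, with a mean of 210 ± 4.41 in shSCR and 228 ± 26.4 CPM in shPostn (0.12, 95% interval −0.09 to 0.33), so the log2 fold changes of the 3 box C/D genes differed in sign.

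Nop58 had a log2 fold change of −0.15, Gar1 −0.14, Nhp2 −0.18 and Dkc1 −0.03, and none of these 4 separated the groups. Dkc1 lay between 76.8 and 84.2 CPM in shSCR and between 64.7 and 93.7 CPM in shPostn, a spread that took in every shSCR value. Of 10 further genes of particle assembly 1 fell, beside 5.53% of all genes. Ruvbl2, an ATPase of the assembly chaperone, went from 84.3 ± 3.85 to 69.9 ± 3.61 CPM (SD, n = 3 each), with a log2 fold change of −0.27 (SE 0.07, adjusted p = 0.0430). It passed in 1 of the 6 fits without a library.

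Among the 5 nucleolar scaffold and chaperone genes Tcof1 fell and the other 4 did not pass. Tcof1 (ENSMUSG00000024613; chromosome 18, 60813755 to 60848971, minus strand) encodes treacle, which holds RNA polymerase I and UBTF at ribosomal DNA and is mutated in Treacher Collins syndrome. It measured 188, 210 and 184 CPM in shSCR and 104, 114 and 100 CPM in shPostn, and every shPostn library lay far below every shSCR library. The log2 fold change was −0.87 (SE 0.08, 95% interval −1.06 to −0.68, adjusted p = 0.00312), or 54.7% of the shSCR level, and it passed in all 16 alternative settings, with adjusted p-values from 1.88e-19 to 0.0325.

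Tcof1 lies on a chromosome that was lower as a whole. The median of 281 chromosome 18 genes was −0.45, with 57.7% of them called lower, and the 53 other genes in the same 10 Mb had a median of −0.45. With chromosome medians taken out Tcof1 still fell, by 0.42 on the log2 scale (adjusted p = 0.0325). Wdr36, a small-subunit assembly gene and the only further listed gene on that chromosome, fell from 107 ± 2.00 to 68.0 ± 5.12 CPM (−0.66, SE 0.07, adjusted p = 0.00441), and missed the threshold once chromosome medians were removed (adjusted p = 0.124).

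Ncl, the gene of nucleolin, measured 751, 803 and 761 CPM in shSCR and 809, 752 and 654 CPM in shPostn, with the highest and the lowest value both in shPostn (−0.06, 95% interval −0.28 to 0.15). Npm1, the gene of the chaperone nucleophosmin, measured 881, 897 and 890 CPM in shSCR and 995, 893 and 962 CPM in shPostn (0.09, −0.07 to 0.26). Npm1 has processed pseudogenes close to its own sequence, so how its reads were shared out by the authors' counting is uncertain. Nolc1, a chaperone of small nucleolar particles, separated the groups without passing, with 130, 140 and 127 against 122, 118 and 104 CPM (−0.21, SE 0.08, adjusted p = 0.145). Gnl3, the gene of nucleostemin, a nucleolar GTPase of stem and tumour cells, had −0.03 (−0.21 to 0.15).

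Small-subunit assembly had all 7 log2 fold changes below 0, from −0.39 to −0.05, and 2 genes fell. Of all genes 48.4% lay below 0 and 5.53% fell. Nop14 (ENSMUSG00000036693; chromosome 5, 34638536 to 34660148, minus strand), part of the processome that cuts the early precursor, measured 61.4, 63.2 and 60.5 CPM in shSCR and 49.2, 47.2 and 44.5 CPM in shPostn. The groups were clearly apart, with a log2 fold change of −0.39 (SE 0.06, 95% interval −0.53 to −0.25, adjusted p = 0.0110), or 76.2% of the shSCR level. The 80 other genes within its 10 Mb had a median of 0.000177, and the call was lost in 3 of 16 settings, with adjusted p-values between 6.62e-05 and 0.0623, the highest without shSCR replicate 2.

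Bysl (ENSMUSG00000023988; chromosome 17, 47599331 to 47611492, minus strand), the gene of bystin, which is needed late in small-subunit assembly, measured 32.1, 34.0 and 32.3 CPM in shSCR and 27.2, 26.2 and 25.1 CPM in shPostn. Its libraries did not overlap (−0.32, SE 0.07, 95% interval −0.48 to −0.16, adjusted p = 0.0297), and it passed in 11 of 16 settings with adjusted p-values from 0.0133 to 0.119. Bysl overlaps the cyclin gene Ccnd3 on the opposite strand, which fell too (−0.53, adjusted p = 0.0231). The libraries are described as strand-specific, but how strand was used in counting is not given in the sources used here, and the part of Ccnd3 reads in the Bysl value was not tested. Altogether 11 members overlap a tested gene on the opposite strand and 0 on the same strand.

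The other 5 small-subunit genes did not pass. Rrp9, a protein of the U3 particle, measured 38.5, 40.1 and 40.5 CPM in shSCR and 38.7, 35.4 and 25.9 CPM in shPostn (−0.25, 95% interval −0.58 to 0.08), and Rrp12, an export factor, 32.3, 38.4 and 34.5 against 35.2, 31.2 and 24.0 CPM (−0.22, −0.56 to 0.12). In both genes shPostn replicate 3 alone lay well below the other 5 libraries. Utp20 had −0.17, Heatr1 −0.17 and Wdr43 −0.05, all processome components. Of 36 further small-subunit genes 1 fell, Wdr36, beside 5.53% of all genes. In 25 the log2 fold change lay below 0, against 48.4% of all genes. Their median was −0.09, and DESeq2 called 2 lower and 1 higher, where it called 7.86% of all genes lower.

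Large-subunit assembly had 2 genes that fell of 9, beside 5.53% of all genes. Nop16 (ENSMUSG00000025869; chromosome 13, 54584185 to 54590090, minus strand), a nucleolar protein of the large-subunit precursor, measured 52.2, 55.1 and 54.1 CPM in shSCR and 31.1, 38.4 and 26.6 CPM in shPostn. The shSCR libraries lay within a narrow band and all shPostn libraries far beneath it. The log2 fold change was −0.75 (SE 0.13, 95% interval −1.05 to −0.45, adjusted p = 0.0149), or 59.5% of the shSCR level, while the 58 other genes in its 10 Mb had a median of 0.04. It passed in 12 of 16 settings, with adjusted p-values from 1.09e-05 to 0.0807, the highest without shSCR replicate 2, and stood at −0.63 without shPostn replicate 3.

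Noc2l (ENSMUSG00000095567; chromosome 4, 156236010 to 156247616, plus strand), a nucleolar protein also known as an inhibitor of histone acetyltransferases, measured 238, 235 and 231 CPM in shSCR and 193, 183 and 189 CPM in shPostn. The spread within each group was small beside the gap between them (−0.32, SE 0.06, 95% interval −0.45 to −0.19, adjusted p = 0.0161). Chromosome 4 had a median of −0.14 over 665 genes, and the 63 other genes in the same 10 Mb at its distal end had −0.18. With chromosome medians taken out Noc2l had −0.18 and an adjusted p of 0.115, and it passed in 10 of 16 settings.

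PES1, BOP1 and WDR12 form a complex needed to process the large-subunit precursor, and their genes differed in value. Wdr12 measured 30.8, 31.3 and 32.5 CPM in shSCR and 28.0, 26.0 and 19.5 CPM in shPostn (−0.37, SE 0.13, adjusted p = 0.126), Pes1 110, 118 and 114 against 106, 94.4 and 103 CPM (−0.17, SE 0.07, adjusted p = 0.146), and Bop1 91.9, 104 and 91.1 against 108, 99.0 and 84.4 CPM (0.02, 95% interval −0.22 to 0.26). The groups did not overlap for Wdr12 and Pes1 and overlapped for Bop1, and none of the 3 passed. The difference between these genes was not tested. Ebna1bp2 had −0.17, Rrs1, which brings ribosomal proteins to the precursor, −0.17, Wdr74 −0.09 and the RNA methyltransferase gene Nop2 −0.04.

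Of 35 further large-subunit genes 4 fell and 1 rose, beside 5.53% and 4.61% of all genes. Their median was −0.09, with 28 values below 0, against 48.4% of all genes. Mrto4, which holds the place of a stalk protein, fell from 64.9 ± 1.01 to 51.3 ± 3.38 CPM (SD, n = 3 each; −0.34, SE 0.06, adjusted p = 0.0214), and Rpf1 fell from 42.1 ± 2.46 to 33.5 ± 1.05 CPM (−0.33, SE 0.07, adjusted p = 0.0295). Ddx24, an RNA helicase on chromosome 12, rose from 126 ± 1.92 to 153 ± 9.49 CPM (0.27, SE 0.06, adjusted p = 0.0414) and missed the threshold once chromosome medians were removed (adjusted p = 0.332). Mrto4, on chromosome 4, then had 0.128 and Rpf1 0.0400. Without 1 library Mrto4 passed in 2 of 6 fits, and Rpf1 and Ddx24 in 1 each.

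The promoter windows of the called members that have one were searched for canonical and variant E-boxes, a search added after the first had been seen. None of Nop16, Nop14, Bysl and Noc2l held CACGTG. The variants CACGCG and CATGTG, each read on both strands, occurred in 17 of 29 members (58.6%), against 25.3% of all genes with a window; CACGCG alone was in 34.5% of the members and 10.5% of all genes. The 4 windows are printed 5′ to 3′ on the gene's strand with these variants in capitals.
Nop16 (chr13:54590025-54590324, minus strand): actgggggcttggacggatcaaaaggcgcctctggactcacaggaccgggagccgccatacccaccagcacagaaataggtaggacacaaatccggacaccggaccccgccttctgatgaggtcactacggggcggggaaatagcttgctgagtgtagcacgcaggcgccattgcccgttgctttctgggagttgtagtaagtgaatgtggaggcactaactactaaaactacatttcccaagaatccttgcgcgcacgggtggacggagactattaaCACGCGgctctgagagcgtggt
Nop14 (chr5:34660099-34660398, minus strand): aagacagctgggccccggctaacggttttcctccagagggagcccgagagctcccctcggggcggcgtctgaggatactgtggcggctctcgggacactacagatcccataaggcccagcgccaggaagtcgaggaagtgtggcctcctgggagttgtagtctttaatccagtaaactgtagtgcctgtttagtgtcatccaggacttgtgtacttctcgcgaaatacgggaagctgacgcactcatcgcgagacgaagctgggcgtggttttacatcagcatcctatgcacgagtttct
Bysl (chr17:47611443-47611742, minus strand): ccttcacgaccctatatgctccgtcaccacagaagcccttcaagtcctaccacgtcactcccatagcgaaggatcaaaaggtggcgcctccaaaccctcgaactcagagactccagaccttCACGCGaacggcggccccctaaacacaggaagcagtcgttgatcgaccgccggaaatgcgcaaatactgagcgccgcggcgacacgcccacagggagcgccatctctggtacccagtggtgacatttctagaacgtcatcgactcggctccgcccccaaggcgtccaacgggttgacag
Noc2l (chr4:156235760-156236059, plus strand): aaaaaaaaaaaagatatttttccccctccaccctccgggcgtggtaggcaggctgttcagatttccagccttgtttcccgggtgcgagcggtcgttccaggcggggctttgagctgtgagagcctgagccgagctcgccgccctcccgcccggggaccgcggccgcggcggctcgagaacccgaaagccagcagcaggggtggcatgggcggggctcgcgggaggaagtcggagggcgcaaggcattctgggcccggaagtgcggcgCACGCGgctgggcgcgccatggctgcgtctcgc
Nop16, Bysl and Noc2l each held CACGCG once and Nop14 held none of the letters searched. Motif shares depend on base composition, which in these 4 windows lay between 56.3% and 68% G and C, and no test was made.

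**Figure D2:**
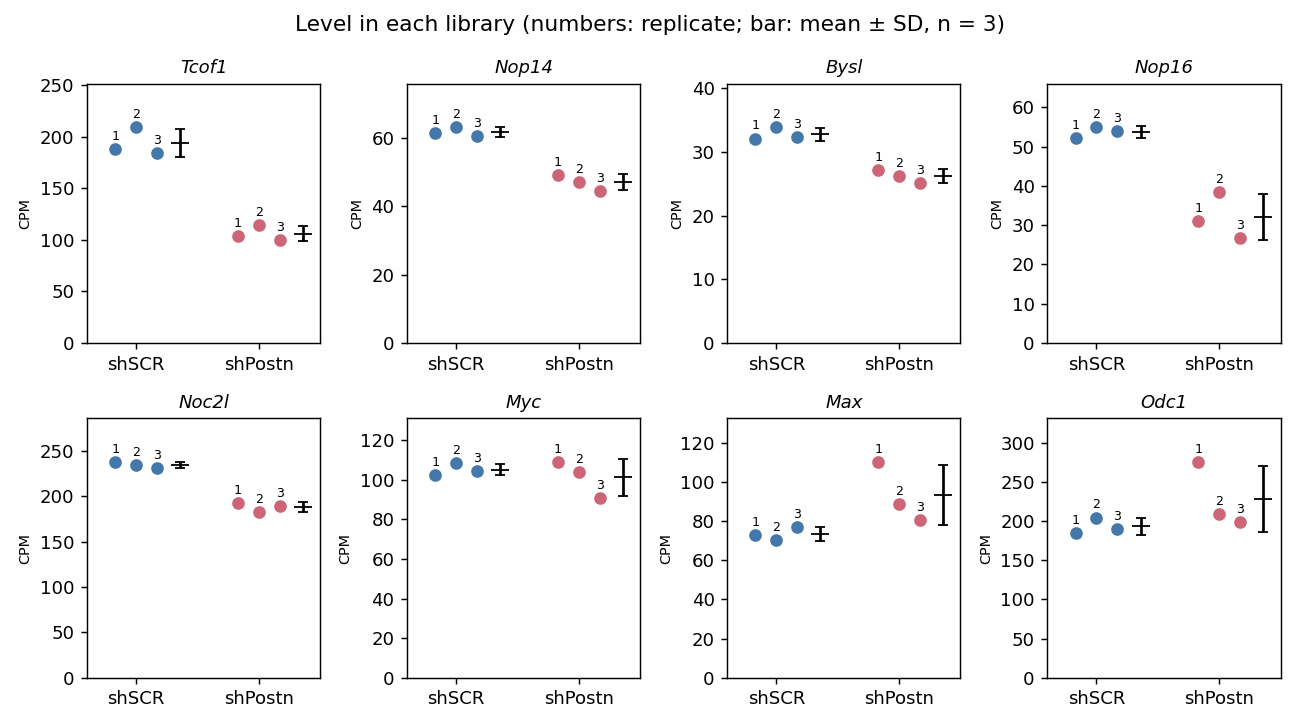
CPM of the 5 genes that fell and of Myc, Max and Odc1 in each library, with replicate numbers beside the points and the mean ± SD (n = 3) at the right of each group. The 5 genes that fell have no overlap between groups, whereas Myc and Odc1 overlap and Max does not.

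Odc1 (ENSMUSG00000011179; chromosome 12, 17544794 to 17551505, plus strand), the rate-limiting enzyme of polyamine synthesis and a classical MYC target, measured 185, 205 and 191 CPM in shSCR and 276, 209 and 199 CPM in shPostn. Replicate 1 of shPostn stood high and the other 2 lay close to the shSCR libraries (0.24, SE 0.13, adjusted p = 0.286). With the chromosome 12 median taken out the value was −0.15 (adjusted p = 0.537). Of 11 other polyamine genes 2 rose, beside 4.61% of all genes. Smox, spermine oxidase, rose from 22.2 ± 0.531 to 34.2 ± 6.13 CPM (SD, n = 3 each), with a log2 fold change of 0.62 (SE 0.13, adjusted p = 0.0290). Oaz2, an antizyme that restrains ornithine decarboxylase, rose from 102 ± 5.89 to 127 ± 7.93 CPM (0.32, SE 0.07, adjusted p = 0.0372). Smox passed in 2 of the 6 fits without a library and Oaz2 in 1, and Oaz2 had an adjusted p of 0.0596 after chromosome medians were removed.

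Other targets of MYC were mostly not called. Of 28 induced targets outside ribosome assembly 2 fell and none rose, beside 5.53% and 4.61% of all genes. Their median was −0.04, and DESeq2 called 4 lower and 1 higher, where it called 7.86% of all genes lower. Shmt1, a one-carbon enzyme, fell from 38.1 ± 3.70 to 25.5 ± 1.35 CPM (SD, n = 3 each; −0.58, SE 0.09, adjusted p = 0.0119), and Rcc1, the nuclear exchange factor of Ran, from 125 ± 5.56 to 97.1 ± 8.37 CPM (−0.37, SE 0.08, adjusted p = 0.0295). Shmt1 passed in 4 of the 6 fits that left out a library and Rcc1 in 2; Rcc1, a chromosome 4 gene, missed the threshold after chromosome medians were removed (adjusted p = 0.141). Of 4 tested genes that MYC is known to repress Cdkn1b, an inhibitor of cyclin E and its kinase, rose from 87.9 ± 5.01 to 108 ± 5.15 CPM (0.29, SE 0.07, adjusted p = 0.0393), passing in 1 of the 6 fits without a library, while the list median was −0.50. Of 14 exosome and nuclease genes 1 fell, beside 5.53% of all genes. It was Exosc10, the nuclear catalytic subunit (−0.26, SE 0.06, adjusted p = 0.0473), a call kept in none of the 6 fits without a library. In that list 13 of 14 lay below 0, against 48.4% of all genes, with a median of −0.09. Every shPostn library lay below every shSCR library in 4 of the 14, as in 17.0% of all genes. None of 13 proliferation genes passed the edgeR test, DESeq2 or limma-voom, with Mki67 at −0.14 and Top2a at −0.04. An unadjusted p under 0.05 was seen at 2 of them, beside 27.0% of all genes. Of these 13 genes 12 lay below 0, against 48.4% of all genes, with a median of −0.11. In 4 of them every shPostn library lay below every shSCR library, as in 17.0% of all genes.

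In the 7 lists of MYC and ribosome assembly genes outside the 36, 11 of 144 tested genes fell (7.64%, beside 5.53% of all genes) and 2 rose, with a median of −0.07. Of the 11, 6 lie on chromosome 4, which holds 12 of the 144, namely Exosc10, Gnl2, Mrto4, Nol9, Rcc1 and Zbtb17; among all 665 chromosome 4 genes 15.0% were called lower. With chromosome medians taken out, 3 of the 144 genes fell and 1 rose, where 2.81% of all genes fell. The number that fell was 2 without shSCR replicate 1 or without replicate 2, 3 without shSCR replicate 3 or without shPostn replicate 2, and 10 without either other library. Over all genes 1.46% to 9.20% fell in these fits.

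**Figure D3:**
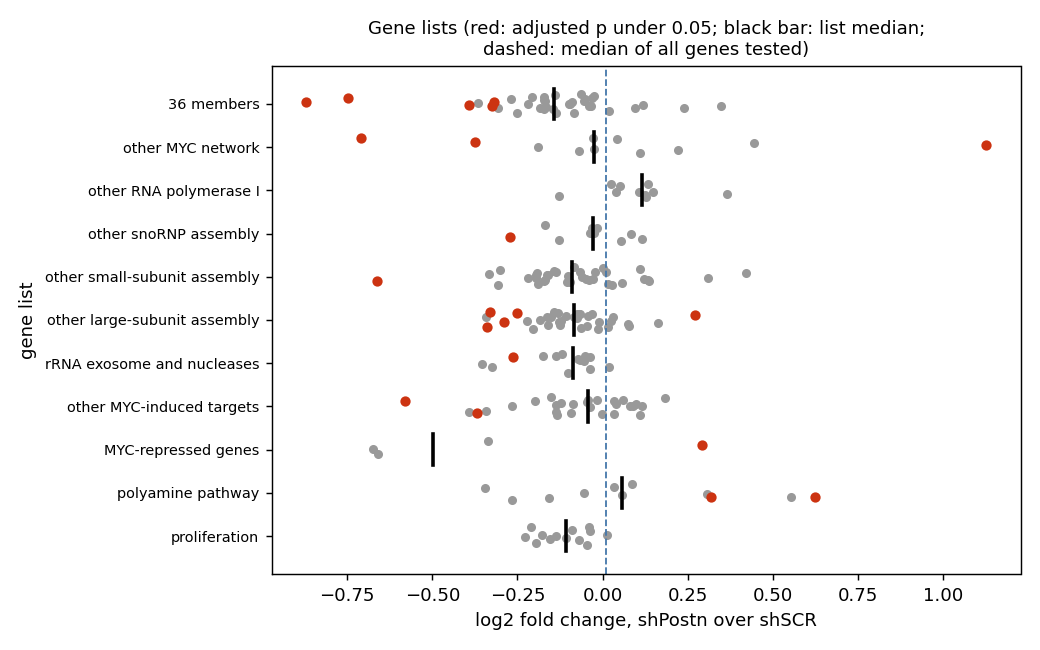
Log2 fold change of each tested gene in the 36 members and in the further lists; red points passed an adjusted p of 0.05, black bars are list medians and the dashed line is the median of all genes tested. The members' median lies at −0.14, below those of the other assembly lists, and the highest value is Mycl at 1.13.

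**Figure D4:**
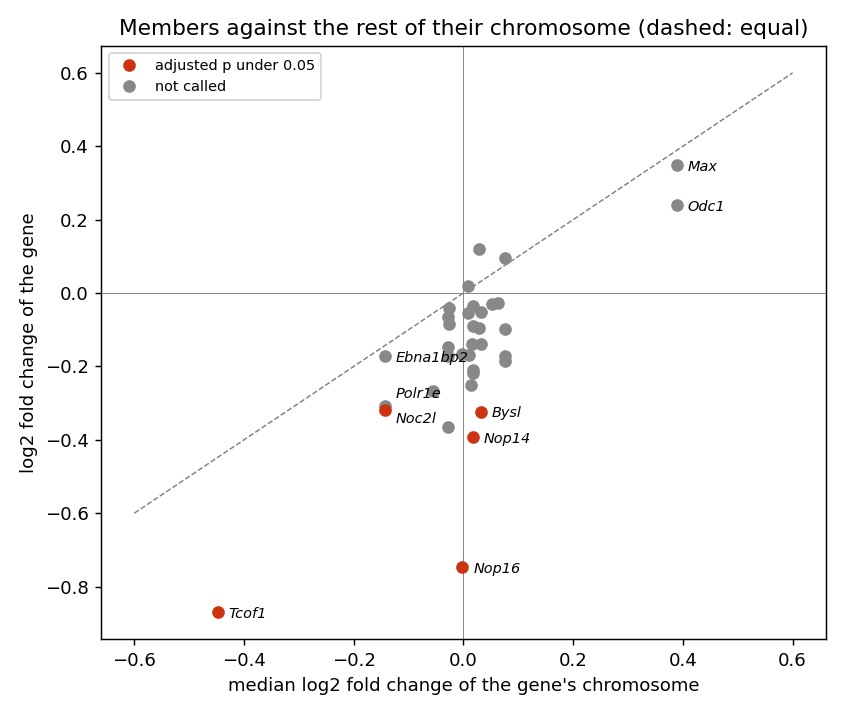
Log2 fold change of each member against the median of its chromosome, with called genes in red and the dashed line where both are equal. Max and Odc1 lie just below the line at the chromosome 12 median of 0.39, Tcof1 lies well below it at −0.45, and Nop16, Nop14 and Bysl are low on chromosomes with medians near 0.

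The members did not vary alike in the 6 libraries. Against the shSCR mean, the median member stood between −0.03 and 0.03 on the log2 scale in the shSCR libraries and at −0.01, −0.13 and −0.29 in shPostn replicates 1, 2 and 3; the median of all genes lay between −0.00585 and −0.000169 in the 6 libraries. Replicate 3 of shPostn was the lowest of the 6 libraries for 29 of 36 members, and it was the lowest shPostn library for 31 of 36, against 39.4% of all genes. It was also the library with the most leukocyte RNA (1102 CPM over 14 markers) and the lowest summed proliferation genes (1731 CPM, with 1912 to 2221 CPM in the others); their part in the members' values was not tested.

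Leaving out shPostn replicate 3, the same 5 genes fell and Max rose, where 9.20% of all genes fell, and 24 of 36 members were below 0, against 50.2% of all genes, with a median of −0.07. With the leukocyte level as a covariate 7 members fell, the 5 and also Polr1e and Wdr12, Max rose, and the median was −0.13; in that fit 9.27% of all genes fell. Without any 1 of the shSCR libraries only Tcof1 passed, where 1.46% to 1.92% of all genes fell. Without shPostn replicate 2 Nop14, Nop16 and Tcof1 passed, where 2.88% of all genes fell. Bysl, Fbl, Noc2l, Nop14 and Tcof1 passed without shPostn replicate 1, where 4.25% of all genes fell. The median coefficient of variation of the members was 3.91% in shSCR and 9.99% in shPostn, and it was higher in shPostn for 34 of 36. Over all genes the medians were 6.84% in shSCR and 10.01% in shPostn, and 69.4% of genes were more variable in shPostn.

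**Figure D5:**
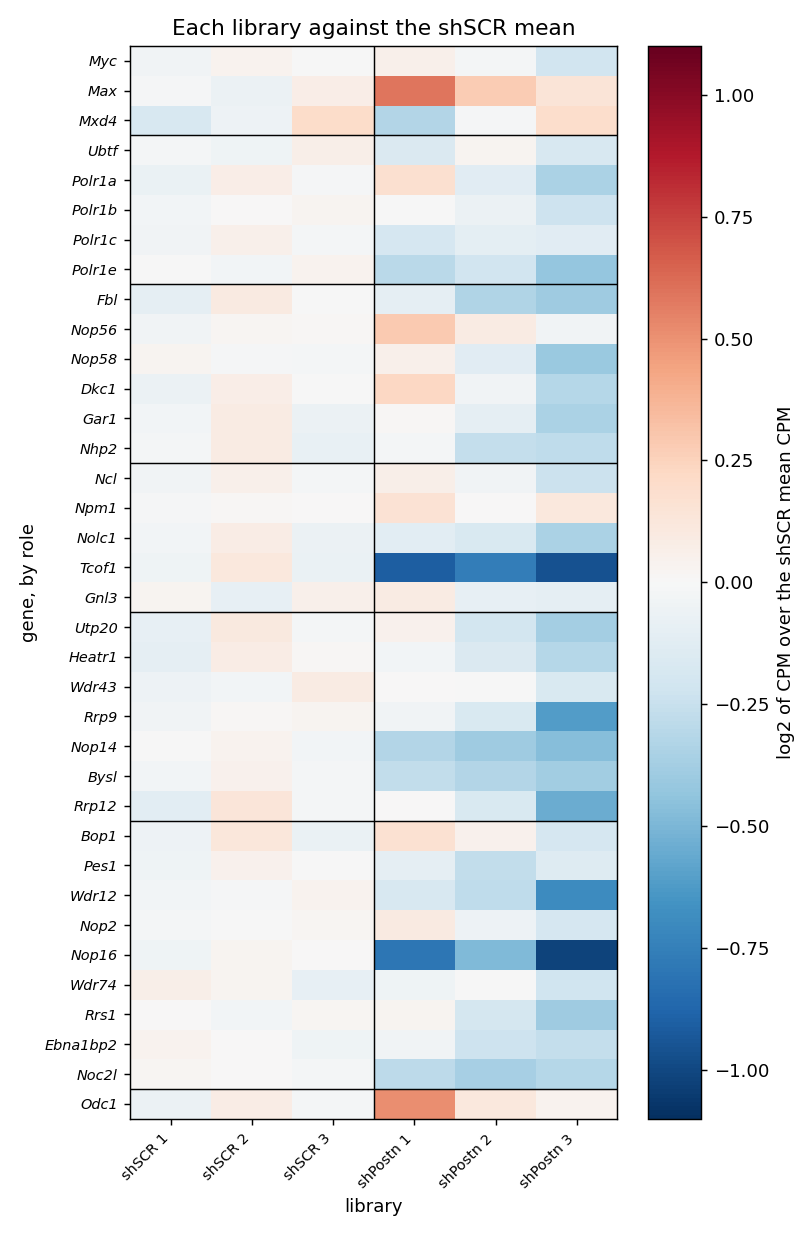
Log2 of each member's CPM in each library over its mean CPM in shSCR, with members grouped by role and the vertical line parting shSCR from shPostn. Tcof1 and Nop16 are blue in all 3 shPostn libraries, at −0.49 or lower, and shPostn replicate 3 is the bluest column, the lowest library for 29 of 36 members.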

How the data were processed

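RNA was measured in 3 shSCR and 3 shPostn libraries. The authors deposited 1 table of estimated counts per Ensembl gene, and the submitters' processing notes name Salmon and the build mm10; versions, annotation and the summing to genes are not stated in those notes. All counts were whole numbers, so rounding changed none of them. Symbols and positions came from GENCODE M21 on GRCm38; between 0.0220% and 0.0386% of a library's counts had no match. Counts were tested with edgeR 4.0.16 (limma 3.58.1, R 4.3.3): genes were kept by filterByExpr (minimum count 10), scaled by TMM, and given a robust quasi-likelihood F-test of shPostn against shSCR without covariate, checked on simulated data. The Benjamini-Hochberg adjustment ran over 12819 genes, and the threshold was 0.05. The SE is the log2 fold change over the square root of F, and 95% intervals use its degrees of freedom. A gene called fell or rose past that threshold. The coefficient of variation and leukocyte covariate use CPM, the latter as log2(CPM + 0.5). Chromosome medians cover genes with a mean above 4 CPM. All p-values are 2-sided.

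The alternatives were other composition factors (relative log expression, upper quartile, none), 2 other filters (none, and 1 CPM in 3 libraries), DESeq2 1.42.0, limma-voom, a replicate block, a leukocyte covariate, chromosome medians taken out through the offsets, and each library left out. All 36 members are named. Of each further list other than the cell type markers, up to 2 called genes per direction were named by size of change, or else the 2 of highest mean CPM. The members, lists and tests were chosen with earlier results of these data known. Gnl2, Nol9 and Ccnd3 were named, the variant E-boxes were searched, and the windows of called members without CACGTG were printed, after values were seen. No batch or date is in the labels. Figures used matplotlib 3.10.9 and pandas 2.3.3 in Python 3.11.15.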

Additional observations from a re-analysis of the deposited data

How the results depend on the processing

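Of the 36 members 1 to 5 fell and 0 to 1 rose with 1 library left out, with medians from −0.23 to −0.074; the lowest count was without any 1 shSCR library and the smallest median without shPostn replicate 3. Over all genes 307 to 2220 were called with 1 library left out, against 1300 of 12819 with all 6, and 1973 with DESeq2, 2194 with the leukocyte covariate and 654 with chromosome medians taken out. DESeq2 and the leukocyte covariate each called 1 member, Max, higher. Of the 144 further genes 11 fell and 2 rose in the main fit. With 1 library left out 2 to 10 fell and 0 to 7 rose, and with chromosome medians taken out 3 fell and 1 rose. With DESeq2 6 rose, and with the leukocyte covariate 5 rose. In both of those fits the 11 genes passed again and more fell with them, where 7.86% (DESeq2) and 9.27% (leukocyte covariate) of all genes fell. Composition factors, count filters and limma-voom left 5 or 6 members lower and 0 higher, and moved the median of all genes by less than 0.1 on the log2 scale.

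The labels do not say whether replicate numbers pair the samples. Deviations of same-numbered libraries from their group mean correlated at −0.07, −0.10 and −0.46 over genes, and no library correlated best with its own number. Deviations within a group of 3 sum to 0 and are not independent, so these values cannot decide whether samples were paired. A replicate block called 735 genes, 3 members lower (Nop14, Nop16 and Tcof1), and 3 further genes lower and 0 higher; Postn then had −3.16 (adjusted p = 0.0592). Postn ranged from −3.40 to −2.71 with 1 library left out, and its adjusted p was 0.0532 without shSCR replicate 1 and 0.0542 without shSCR replicate 2.

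Log2 fold changes that turned sign were those of genes not called. With 1 library left out these were Myc (−0.11 to 0.019), Mxd4 (−0.16 to 0.091), Polr1a (−0.23 to 0.032), Dkc1 (−0.17 to 0.10), Ncl (−0.13 to 0.018), Gnl3 (−0.092 to 0.00262), Wdr43 (−0.081 to 0.00325), Bop1 (−0.061 to 0.11) and Nop2 (−0.12 to 0.027). Taking out chromosome medians turned Max to −0.041 and Odc1 to −0.15, since chromosome 12 had a median of 0.39; Dkc1 was 0.00591 with the leukocyte covariate and Bop1 −0.000361 with upper-quartile factors, and the cause was not tested.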
